A study of Mus musculus with 8 samples.

Results

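The 10 genes described here report on stress in the endoplasmic reticulum (ER) and on the transcription factor ATF4. They are Atf4, Ddit3, Trib3, Chac1, Asns, Hspa5, Hsp90b1, Sdf2l1, Herpud1 and Dnajb9, chosen by name among the 48607 loci of the deposited gene table. Where several loci carried a name, the locus with the most counts was taken. Poly(A) RNA of whole aortas was sequenced in 8 libraries, all from mice that lacked ApoE and ate a Western diet. The titles put 5 libraries in the group ApoE-/- (1 to 5) and 3 in the group NPRC-/-ApoE-/- (1 to 3), in which a CRISPR frameshift in the first exon of Npr3 was made to remove the natriuretic peptide receptor NPRC from all cells of the animal. A separate genotype entry named the other genotype for 4 of the 8 libraries. ApoE-/- 4 and 5 were entered as Nprc-/-Apoe-/-, and NPRC-/-ApoE-/- 1 and 2 were entered as Apoe-/-. The labels do not settle which is right, so every comparison was made by title and repeated by genotype entry. The authors describe sequencing of aortas from 5 mice of each genotype, whereas 3 libraries carry the title NPRC-/-ApoE-/-. The labels also do not say whether each library came from 1 animal, so the p-values measure the spread between libraries.

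Unfolded protein in the ER is sensed by PERK, IRE1 and ATF6. PERK and its sister kinases phosphorylate the initiation factor eIF2 alpha, which slows most translation but favours that of ATF4, so that ATF4 protein can rise with little change in its mRNA. ATF4 in turn drives genes of amino acid supply and, with prolonged stress, CHOP, the product of Ddit3, while ATF6 and the IRE1 target XBP1 drive ER chaperones and degradation factors. In atherosclerosis the pathway is known from macrophages loaded with cholesterol, whose death has been tied to CHOP.

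The promoters of 10 of 10 genes were present in the RefSeq promoter table (GRCm38.p6; 250 bases before to 50 after the start). They were searched on both strands for 4 textbook elements. ERSE, bound by ATF6 with NF-Y, is CCAAT and CCACG separated by 9 bases. ERSE-II is ATTGG and CCACG separated by 1 base. The UPRE letters were TGACGTGG. The CARE letters, bound by ATF4 with C/EBP proteins, were TGATGNAA. ERSE and ERSE-II were found in 0.119% and 0.0365% of the 32851 promoters, UPRE in 0.676% and CARE in 3.97%. A match was present in 6 of the 10 genes, with ERSE in 2, ERSE-II in 1, CARE in 4 and UPRE in 0. The stretches upstream of the RefSeq start that hold them are given here because they carry the elements by which the 2 arms of the response are told apart. Capitals mark the matched element, read in either direction, in the sense direction of the gene.
Hspa5, chr2:34772020-34772048, plus strand: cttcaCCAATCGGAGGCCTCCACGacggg
Hsp90b1, chr10:86705528-86705661, minus strand: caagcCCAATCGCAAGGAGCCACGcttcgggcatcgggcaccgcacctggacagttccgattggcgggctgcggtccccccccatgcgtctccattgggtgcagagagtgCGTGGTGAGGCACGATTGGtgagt
Herpud1, chr8:94386312-94386392, plus strand: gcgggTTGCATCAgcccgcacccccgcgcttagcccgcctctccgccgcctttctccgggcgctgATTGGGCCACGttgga
Asns, chr6:7693220-7693237, minus strand: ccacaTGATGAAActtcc
Chac1, chr2:119351044-119351061, plus strand: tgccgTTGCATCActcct
The chaperone genes Hspa5 and Hsp90b1 held ERSE, the latter at 2 places, whereas Asns and Chac1 held CARE. No match was found in Atf4, Ddit3, Sdf2l1 or Dnajb9. Herpud1 held both ERSE-II and CARE. The CARE match of Trib3 lay downstream of the start, from base 15. Positions count from the RefSeq start, which lies downstream of the GENCODE start for Hspa5, Asns, Hsp90b1 and Chac1. The stretches of Hspa5 and Asns therefore fall inside the gene spans given with their values. The elements are textbook ones for genes of this kind, so their presence here is no test of enrichment over the shares of all promoters. A match is a description of the letters, and no binding was measured.

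The libraries held 62969165 to 86693276 counts. Of all loci, 20506 had at least 1 FPKM (deposited values, fragments scaled to a length and to library size) in at least 3 libraries and were tested with edgeR. The smooth muscle gene Myh11 was at 109 to 324 FPKM in these aortas. Npr3, the targeted gene, ranged from 0.62 to 1.69 FPKM under the title ApoE-/- and from 1.13 to 1.39 FPKM under the title NPRC-/-ApoE-/-, with a log2 fold change of 0.10 (SE 0.28, edgeR adjusted p = 0.901). Its mRNA level did not separate the genotypes by title, nor by genotype entry (log2 fold change 0.16, SE 0.28), and a frameshift need not lower it. In an aorta sequenced whole, fewer cells of a type and less RNA per cell cannot be told apart.

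Chaperones were the most abundant of the 10 genes and Trib3 and Chac1 the least. On the deposited FPKM scale, the median level over 8 libraries was 31.7 for Hsp90b1, 30.4 for Hspa5, 22.0 for Atf4 and 10.9 for Herpud1. It was 6.28 for Sdf2l1, 6.01 for Dnajb9, 4.10 for Ddit3, 2.79 for Asns, 1.14 for Trib3 and 0.79 for Chac1. The length by which each locus was scaled is not given. In ApoE-/- 1, Atf4 had 4489 counts at 19.36 FPKM, Ddit3 2038 at 4.33 FPKM and Npr3 6118 at 1.69 FPKM. The order of the genes is therefore that of the deposited FPKM and need not be that of transcript number. Along this order, the ranges of all neighbours overlapped except those of Atf4, with a lowest value of 15.69 FPKM, and Herpud1, with a highest value of 15.02 FPKM. Chac1 reached 1 FPKM in 1 library only and was therefore left out of the test, and the other 9 genes passed the filter.

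**Figure D1:**
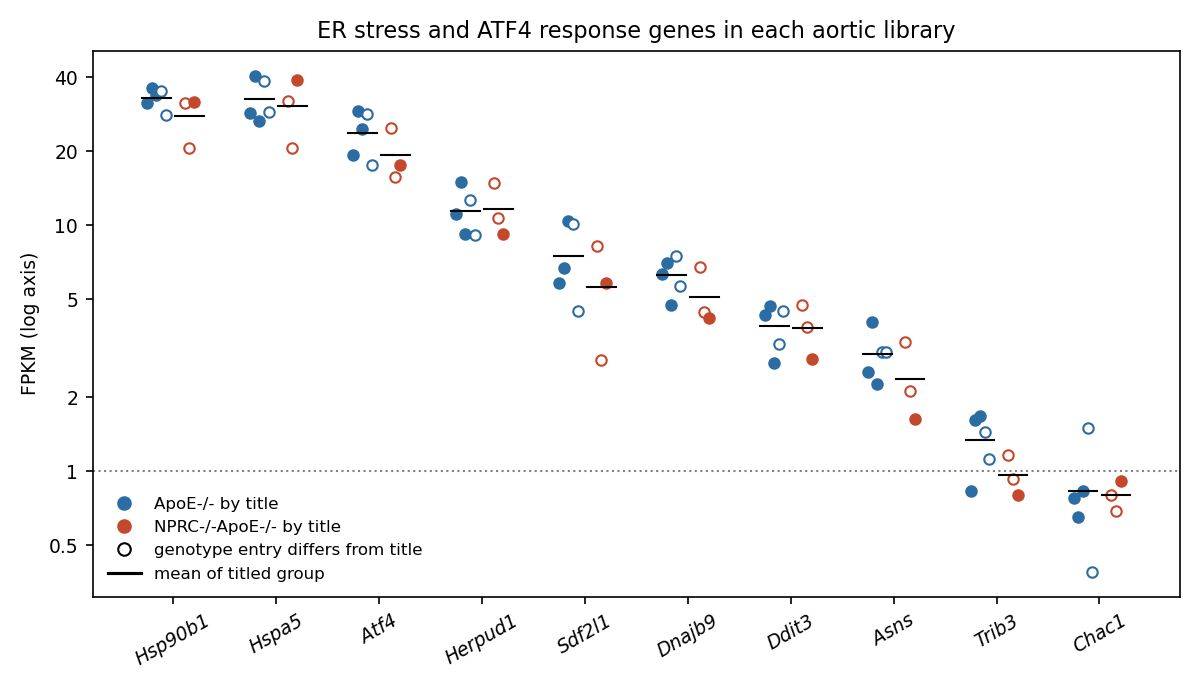
FPKM (log axis) of the 10 genes in each library, in order of median level. Blue points are libraries titled ApoE-/- and red points libraries titled NPRC-/-ApoE-/-, open points are the 4 libraries whose genotype entry differs from the title, bars are means of the titled groups, and the dotted line marks 1 FPKM. The 2 titled groups overlap for every gene.

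Atf4 (ENSMUSG00000042406, chr15:80255184-80257541, plus strand, GRCm38), the factor at the centre of the response, was at 19.36, 29.19, 24.58, 28.36 and 17.55 FPKM in ApoE-/- 1 to 5. In NPRC-/-ApoE-/- 1 to 3 it was at 24.90, 15.69 and 17.62 FPKM. The lowest value was in a library titled NPRC-/-ApoE-/- and the highest in one titled ApoE-/-, but the groups overlapped. The means were 23.8 ± 5.23 (SD, n = 5) and 19.4 ± 4.86 FPKM (SD, n = 3), and the log2 fold change was -0.29 (95% interval -0.82 to 0.25, edgeR adjusted p = 0.607). By genotype entry it was -0.06 (95% interval -0.65 to 0.52).

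Among the targets of ATF4, Ddit3 (ENSMUSG00000025408, chr10:127290774-127296288, plus strand), which encodes the stress factor CHOP, varied least of the 10 genes. It was at 4.33, 4.68, 2.76, 3.30 and 4.48 FPKM in ApoE-/- 1 to 5 and at 4.76, 3.87 and 2.86 FPKM in NPRC-/-ApoE-/- 1 to 3. Both groups spanned nearly the same range. By title its log2 fold change was -0.002 (95% interval -0.44 to 0.43, edgeR adjusted p = 0.998), so that a doubling or a halving of the group mean lies outside the interval. By genotype entry it was -0.18 (95% interval -0.60 to 0.25).

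Trib3 (ENSMUSG00000032715, chr2:152337422-152344032, minus strand), a pseudokinase that binds AKT and restrains ATF4, was at 0.83, 1.61, 1.67, 1.44 and 1.12 FPKM in ApoE-/- 1 to 5. In NPRC-/-ApoE-/- 1 to 3 it was at 1.16, 0.93 and 0.80 FPKM. The 3 highest values were in libraries titled ApoE-/-, while ApoE-/- 1 lay among the low libraries, so the groups overlapped. Trib3 had the largest difference by title among the 9 tested genes, with a log2 fold change of -0.47 (SE 0.29, 95% interval -1.11 to 0.18, edgeR adjusted p = 0.486). Without ApoE-/- 1 the log2 fold change was -0.61 (edgeR adjusted p = 0.364). The unadjusted p was then under the threshold of 0.05, in a fit in which 13.3% of all loci passed that threshold. Without ApoE-/- 3 it was -0.33 (edgeR adjusted p = 0.694), the smallest difference by title with 1 library left out. By genotype entry, with all libraries, the log2 fold change was -0.12.

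Asns (ENSMUSG00000029752, chr6:7675169-7693254, minus strand), which encodes asparagine synthetase, was at 2.54, 4.04, 2.27, 3.04 and 3.06 FPKM in ApoE-/- 1 to 5. It was at 3.36, 2.11 and 1.63 FPKM in NPRC-/-ApoE-/- 1 to 3. The 2 lowest values were in NPRC-/-ApoE-/- 2 and 3, but NPRC-/-ApoE-/- 1 had the second highest value of all 8. By title the log2 fold change of Asns was -0.32 (95% interval -0.89 to 0.25, edgeR adjusted p = 0.584) and by genotype entry -0.12. Without NPRC-/-ApoE-/- 1 it was -0.63 (edgeR adjusted p = 0.179). Its unadjusted p was then under 0.05, in a fit in which 21.6% of all loci had an unadjusted p under 0.05. Without NPRC-/-ApoE-/- 3 the log2 fold change by title was -0.13 (edgeR adjusted p = 0.921), the smallest difference with 1 library left out.

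Chac1 (ENSMUSG00000027313, chr2:119351229-119354381, plus strand), an enzyme that breaks down glutathione, was at 0.78, 0.65, 0.83, 1.5 and 0.39 FPKM in ApoE-/- 1 to 5, from 89 to 366 counts per library. In NPRC-/-ApoE-/- 1 to 3 it was at 0.80, 0.69 and 0.91 FPKM. The highest and the lowest value of all libraries were both in the group titled ApoE-/-, in libraries 4 and 5, which share a genotype entry. The group means by title were 0.83 ± 0.41 (SD, n = 5) and 0.80 ± 0.11 FPKM (SD, n = 3). The difference in log2 CPM ran the other way, at 0.09, and with no filter on low values the edgeR log2 fold change was -0.06 (adjusted p = 0.972).

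Of the chaperones, Hspa5 (ENSMUSG00000026864, chr2:34771970-34777547, plus strand) encodes BiP, the HSP70 of the ER. It was at 28.54, 40.67, 26.68, 38.60 and 28.83 FPKM in ApoE-/- 1 to 5 and at 32.00, 20.55 and 39.04 FPKM in NPRC-/-ApoE-/- 1 to 3. The 3 libraries titled NPRC-/-ApoE-/- held the lowest value and also 1 of the 3 highest. The log2 fold change was -0.07 by title (95% interval -0.63 to 0.49, edgeR adjusted p = 0.925) and 0.30 by genotype entry (95% interval -0.22 to 0.82, edgeR adjusted p = 1.00). The sign of Hspa5 thus depended on the label used.

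Hsp90b1 (ENSMUSG00000020048, chr10:86690209-86705509, minus strand) encodes GRP94, the HSP90 of the ER, and its locus also carried Gm15344 and Gm25745, whose reads cannot be told from its own. It was at 31.49, 36.30, 33.77, 35.25 and 28.14 FPKM in ApoE-/- 1 to 5. In NPRC-/-ApoE-/- 1 to 3 it was at 31.33, 20.57 and 31.83 FPKM. A single library, NPRC-/-ApoE-/- 2, lay below the other 7. The log2 fold change was -0.22 by title (95% interval -0.66 to 0.21, edgeR adjusted p = 0.628) and 0.09 by genotype entry.

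Sdf2l1 (ENSMUSG00000022769, chr16:17130138-17132383, minus strand), a cofactor of BiP, had the widest spread of the tested genes. It was at 5.83, 6.71, 10.46, 10.09 and 4.47 FPKM in ApoE-/- 1 to 5 and at 8.21, 2.84 and 5.84 FPKM in NPRC-/-ApoE-/- 1 to 3. ApoE-/- 3 and 4 were high, and ApoE-/- 5 and NPRC-/-ApoE-/- 2 were low, so each group held a low library. By title its log2 fold change was -0.42 with an SE of 0.41 (95% interval -1.35 to 0.52, edgeR adjusted p = 0.672), and by genotype entry it was 0.04. With 242 to 1144 counts per library, spread between libraries and not counting limits this value.

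Dnajb9 (ENSMUSG00000014905, chr12:44205559-44210326, minus strand) encodes ERdj4, a J protein that works with BiP. It was at 6.33, 7.04, 4.75, 7.47 and 5.68 FPKM in ApoE-/- 1 to 5 and at 6.74, 4.43 and 4.18 FPKM in NPRC-/-ApoE-/- 1 to 3. The lowest 2 values were in NPRC-/-ApoE-/- 2 and 3, next to ApoE-/- 3, and NPRC-/-ApoE-/- 1 was the third highest. By title its log2 fold change was -0.27 (95% interval -0.73 to 0.18, edgeR adjusted p = 0.561), and by genotype entry 0.02. Without NPRC-/-ApoE-/- 1 it was -0.50 by title (edgeR adjusted p = 0.201). The unadjusted p was then under 0.05, in a fit in which 21.6% of all loci passed that threshold. Without NPRC-/-ApoE-/- 2 it was -0.15 by title (edgeR adjusted p = 0.915), the smallest difference with 1 library left out. Another locus of 225 bases with the name Dnajb9 held 2 to 38 counts per library and was left out.

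Herpud1 (ENSMUSG00000031770, chr8:94386438-94395377, plus strand), a membrane protein of the ER that serves ER-associated degradation, was at 11.13, 15.02, 9.23, 12.63 and 9.15 FPKM in ApoE-/- 1 to 5. It was at 14.87, 10.74 and 9.25 FPKM in NPRC-/-ApoE-/- 1 to 3. The groups covered the same range. Herpud1 was the only tested gene with a higher mean by title, at a log2 fold change of 0.04 (95% interval -0.43 to 0.51, edgeR adjusted p = 0.955), and by genotype entry the log2 fold change was -0.19.

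Taking the 9 tested genes as a list, 0 had an unadjusted p under 0.05 by title in edgeR, in DESeq2 or in limma on FPKM, whereas 13.6% of all tested loci did in edgeR, 7.13% lower and 6.51% higher. At an adjusted p under 0.05 the count was 0 of 9, beside 0% of all loci in edgeR, and DESeq2 called 650 loci at that level, none of them among the 9 genes. The groups failed to overlap for 0 of 9 genes, against 7.41% of all loci. The log2 fold change was negative for 8 of 9 genes with a median of -0.27, while it was negative for 50.9% of all loci with a median of -0.006. By genotype entry 0 of 9 genes had an unadjusted p under 0.05, beside 1.31% of all loci, and 0 had an adjusted p under 0.05, beside 0%. There too the groups overlapped for all 9, beside 1.2% of loci without overlap, and 5 of 9 log2 fold changes were negative with a median of -0.06. The 9 genes were measured in the same libraries, so the count of negative signs is a description.

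**Figure D2:**
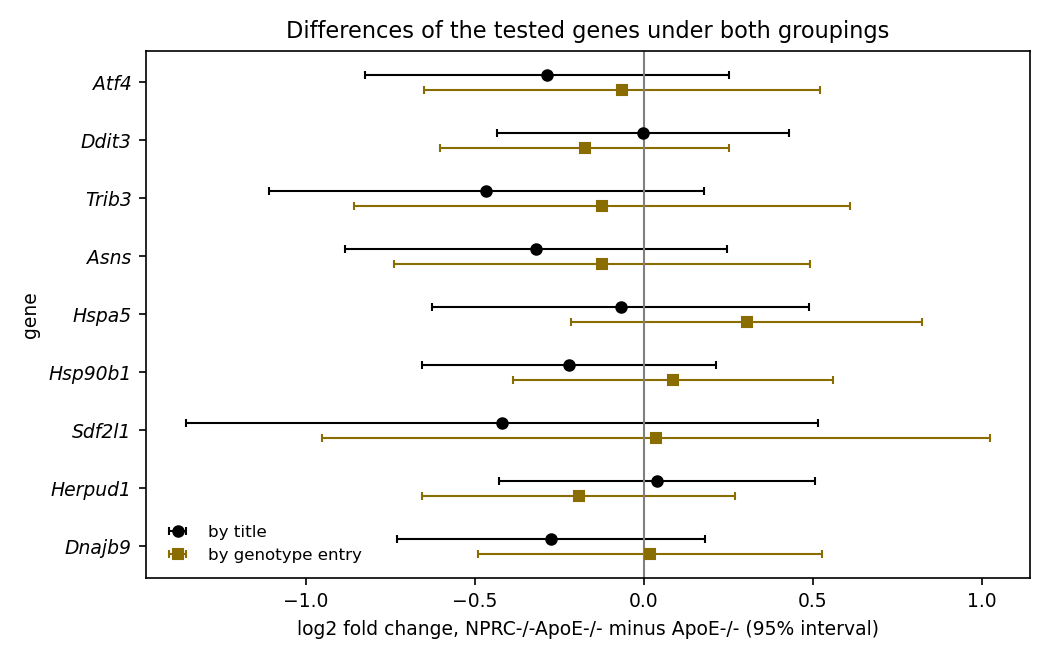
Log2 fold change (x axis) of the 9 tested genes with 95% intervals from edgeR, for the libraries grouped by title (black circles) and by genotype entry (brown squares). All intervals include 0, and 8 of 9 points lie below 0 by title against 5 of 9 by genotype entry.

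The labels name the same genotype in title and entry for 4 libraries, ApoE-/- 1 to 3 and NPRC-/-ApoE-/- 3. With 3 libraries against 1 there is no test, and the differences in log2 CPM (counts scaled to library size) are given as values. They were -0.72 for Asns, -0.62 for Trib3, -0.43 for Dnajb9, -0.36 for Atf4, -0.33 for Ddit3, -0.26 for Sdf2l1 and -0.23 for Herpud1. They were 0.40 for Hspa5 and 0.36 for Chac1, and Hsp90b1 was at the same level on both sides. In NPRC-/-ApoE-/- 3, Asns, Dnajb9 and Herpud1 lay below and Hspa5 and Chac1 above all of ApoE-/- 1 to 3. The other genes lay within the range of ApoE-/- 1 to 3, among them Trib3, at a log2 CPM of 1.16 beside 1.08 in ApoE-/- 1. These values rest on 1 library.

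Much of the spread of the 10 genes lay between libraries of the same title. The coefficient of variation of CPM over the 8 libraries was 24.5% in the median, near the 23.2% of all tested loci. It was 42.4% for Sdf2l1, with a highest CPM 3.97 times the lowest, and 42.1% for Chac1, with a ratio of 4.25. It was 17.0% for Ddit3, with a ratio of 1.59. On the CPM scale NPRC-/-ApoE-/- 2 held the lowest level of 5 genes, namely Atf4, Hspa5, Hsp90b1, Sdf2l1 and Dnajb9, and ApoE-/- 4 held the highest level of 4, namely Atf4, Chac1, Hsp90b1 and Dnajb9. These 2 libraries have conflicting labels. In log2 CPM, Sdf2l1 was 1.16 below its own mean in NPRC-/-ApoE-/- 2 and Hspa5 and Hsp90b1 were 0.61 and 0.59 below theirs, whereas Ddit3 was 0.02 above its mean in the same library. NPRC-/-ApoE-/- 3 differed from NPRC-/-ApoE-/- 2, since Hspa5 had its highest level of all libraries there, 0.41 above its mean, and Asns its lowest, 0.62 below.

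**Figure D3:**
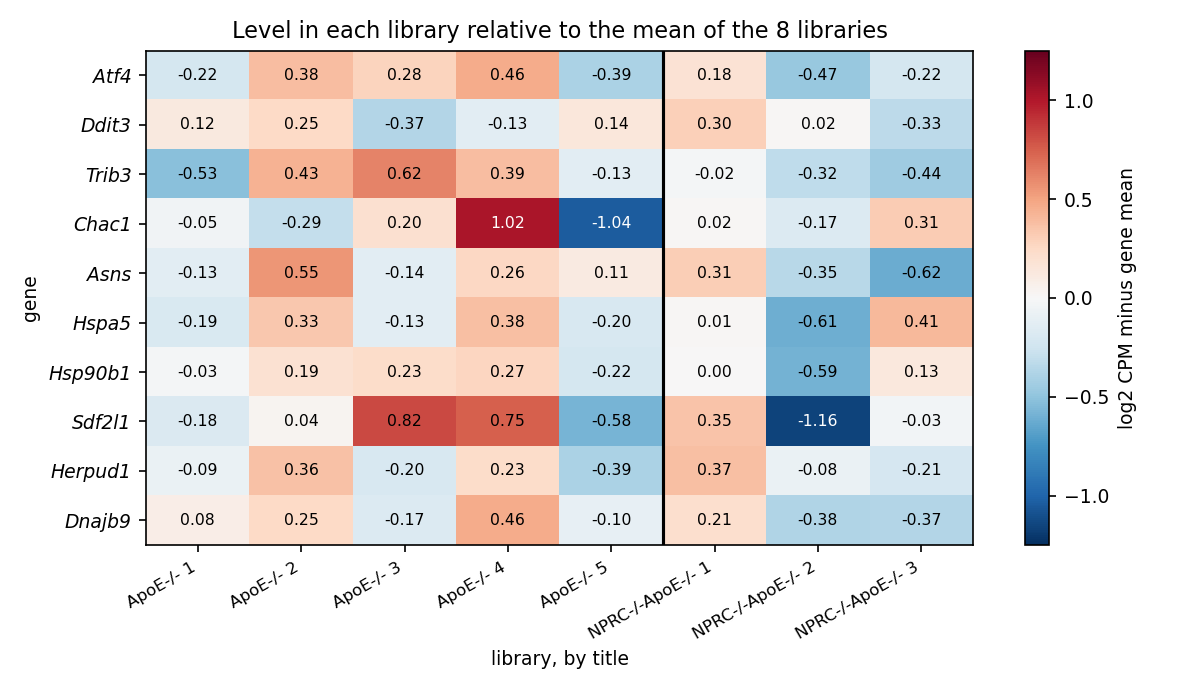
Log2 CPM of each gene (rows) in each library (columns, by title) minus the gene's mean over the 8 libraries, with the value in each cell and red above and blue below the mean. NPRC-/-ApoE-/- 2 is low for the chaperones, at -1.16 for Sdf2l1, and ApoE-/- 4 is high, at 0.75 for Sdf2l1 and 1.02 for Chac1, with both kinds of library on each side of the line between the titled groups.

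Correlations between the genes were taken across the 8 libraries without regard to label. Of the 45 pairs of genes, 38 had a positive Pearson r of log2 CPM, and the median r was 0.49. The share of positive pairs among all loci was not computed, so these values are a description. Of the 7 negative pairs 6 included Ddit3, whose median r with the other genes was -0.16, while that of Atf4 was 0.70. Ddit3 had a positive r with Asns (0.65), Herpud1 (0.48) and Dnajb9 (0.45). The highest r was that of the chaperone Hsp90b1 and the BiP cofactor Sdf2l1, at 0.91 (Spearman rho 0.90, two-sided exact permutation p = 0.00144, adjusted p over the 45 pairs 0.0647). It was 0.66 without the 2 libraries farthest from the median, ApoE-/- 5 and NPRC-/-ApoE-/- 2. Atf4 had an r of 0.87 with Sdf2l1 (rho 0.88, exact permutation p = 0.00342, adjusted p = 0.077, r without 2 libraries 0.76). It had an r of 0.82 with Hsp90b1 (rho 0.95, exact permutation p = 0.00541, adjusted p = 0.0773, r without 2 libraries 0.76). Hspa5 and Hsp90b1 were at 0.84 (rho 0.76, exact permutation p = 0.00687, adjusted p = 0.0773, r without 2 libraries 0.69), and Asns and Dnajb9 at 0.85 (rho 0.88, exact permutation p = 0.00905, adjusted p = 0.0815, r without 2 libraries 0.83).

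In all, 8 of 45 pairs had an unadjusted exact permutation p under 0.05 and 0 an adjusted p under 0.05. With deviations from the titled group means in place of the levels, r was 0.90 for Hsp90b1 and Sdf2l1 and 0.85 for Atf4 and Sdf2l1, so these relations were nearly as strong within titled groups. Leaving out 1 library at a time gave 0 to 2 pairs with an adjusted p under 0.05. Without ApoE-/- 2 these were Atf4 with Sdf2l1 and Hsp90b1 with Sdf2l1, without NPRC-/-ApoE-/- 1 Hsp90b1 with Sdf2l1, and without NPRC-/-ApoE-/- 3 Atf4 with Hsp90b1. The lowest r was -0.52, between Ddit3 and Chac1 (exact permutation p = 0.192).

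**Figure D4:**
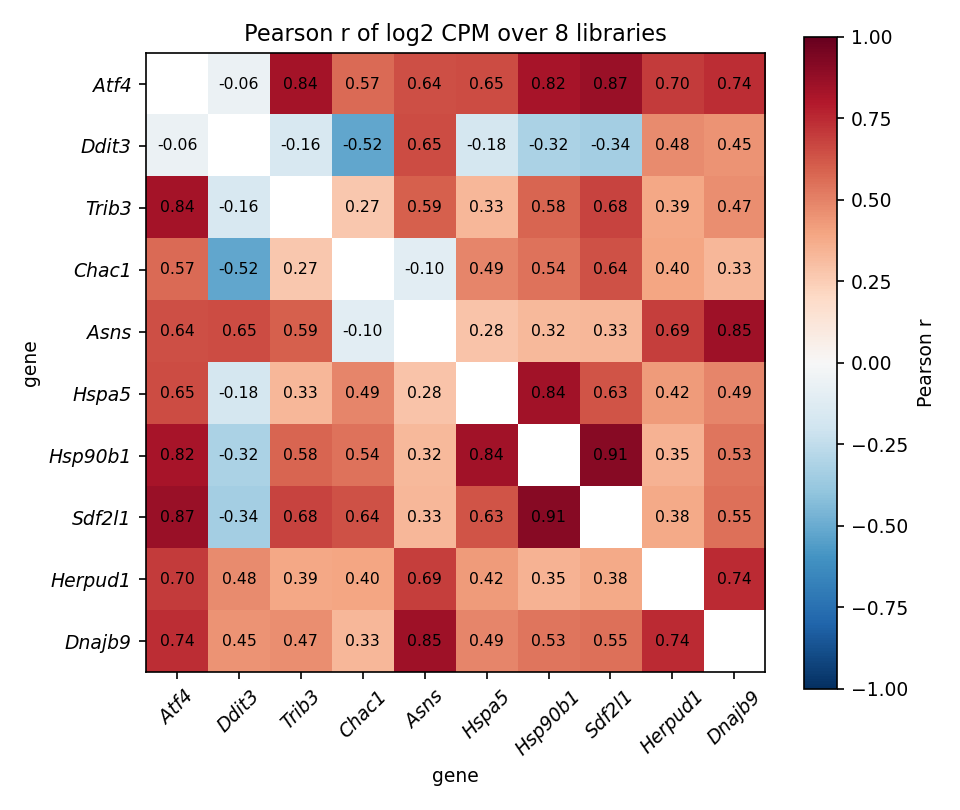
Pearson r of log2 CPM over the 8 libraries for each pair of the 10 genes (rows and columns), with red positive and blue negative. Atf4, Hsp90b1 and Sdf2l1 have r of 0.82 to 0.91 with each other, and the row of Ddit3 runs from -0.52 to 0.65.

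A further 68 genes of the same pathways were taken as 4 lists, of which 63 genes were tested. By title, 5 were lower and 1 higher at an unadjusted edgeR p under 0.05, a share of 9.52%, below the 13.6% of all loci. None had an adjusted p under 0.05 in edgeR, with 0.267 the smallest. The log2 fold change was negative for 53 of 63 with a median of -0.21. By genotype entry 0 of 63 passed an unadjusted p of 0.05, 30 were negative and the median was 0.02. With 1 library left out, the count by title was 3 without ApoE-/- 3, where 10.3% of all loci passed. It was also 3 without NPRC-/-ApoE-/- 3, where 6.70% passed, and 12 without NPRC-/-ApoE-/- 1, where 21.6% of all loci passed.

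Of the 10 sensors and switches, which start the response and turn it off, all 10 had a negative log2 fold change by title and 2 were lower at an unadjusted edgeR p under 0.05, beside 7.13% of all loci. Eif2ak2, the kinase PKR that phosphorylates eIF2 alpha on sensing double-stranded RNA, was at 4.75, 5.47, 4.45, 4.34 and 3.99 FPKM in ApoE-/- 1 to 5 and at 3.67, 2.37 and 2.93 FPKM in NPRC-/-ApoE-/- 1 to 3. All 3 libraries titled NPRC-/-ApoE-/- lay below the other 5, beside 7.41% of all loci without overlap in log2 CPM. The log2 fold change of Eif2ak2 was -0.60 (SE 0.17, edgeR adjusted p = 0.267). By genotype entry its log2 fold change was -0.11. Its locus also carried Gm6548. Eif2s1, which encodes eIF2 alpha itself, was at 3.29, 4.15, 3.26, 3.92 and 2.95 FPKM in ApoE-/- 1 to 5 and at 2.87, 2.24 and 2.16 FPKM in NPRC-/-ApoE-/- 1 to 3. The FPKM ranges met closely without overlap, whereas in log2 CPM the groups overlapped. The log2 fold change was -0.52 (SE 0.17, edgeR adjusted p = 0.290) by title and -0.04 by genotype entry.

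Of the 30 listed targets of ATF4, 26 were tested, and 19 of the log2 fold changes by title were negative. At an unadjusted edgeR p under 0.05, 2 were lower and 1 higher, beside 7.13% and 6.51% of all loci. Atf3, a stress-induced factor that is also an early response gene, was at 4.85, 6.72, 6.30, 4.19 and 3.83 FPKM in ApoE-/- 1 to 5 and at 3.52, 3.45 and 1.74 FPKM in NPRC-/-ApoE-/- 1 to 3. The groups did not overlap, beside 7.41% of all loci without overlap in log2 CPM. The log2 fold change of Atf3 was -0.83 (SE 0.28, edgeR adjusted p = 0.301) by title and -0.59 by genotype entry. Slc3a2, the heavy chain of amino acid transporters, was at 15.11, 17.79, 20.39, 18.78 and 11.81 FPKM in ApoE-/- 1 to 5 and at 13.44, 11.00 and 10.54 FPKM in NPRC-/-ApoE-/- 1 to 3. ApoE-/- 5 lay within the range of the other group, and the log2 fold change was -0.52 (edgeR adjusted p = 0.344) by title and -0.15 by genotype entry. Pycr1, an enzyme of proline synthesis, went the other way. It ranged from 0.62 to 1.32 FPKM under the title ApoE-/- and from 1.2 to 1.6 FPKM under the title NPRC-/-ApoE-/-, and its log2 fold change was 0.61 (edgeR adjusted p = 0.359) by title and 0.16 by genotype entry. Slc7a3, Fgf21, Cth and Stc2 did not pass the filter on low values.

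Of the 16 listed chaperones and folding enzymes, 15 were tested and Creld2 did not pass the filter. By title 13 of the 15 log2 fold changes were negative. At an unadjusted edgeR p under 0.05, 1 gene was lower, beside 7.13% of all loci. This was Pdia3, a disulphide isomerase of glycoproteins. It was at 49.40, 54.04, 63.16, 58.19 and 43.22 FPKM in ApoE-/- 1 to 5 and at 40.35, 31.55 and 41.24 FPKM in NPRC-/-ApoE-/- 1 to 3. The groups did not overlap in FPKM, but in log2 CPM they did. The log2 fold change was -0.49 (SE 0.19, edgeR adjusted p = 0.328) by title and 0.03 by genotype entry. Of the 12 genes of ER-associated degradation and export, 0 passed an unadjusted p of 0.05 in edgeR by title, beside 13.6% of all loci.

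**Figure D5:**
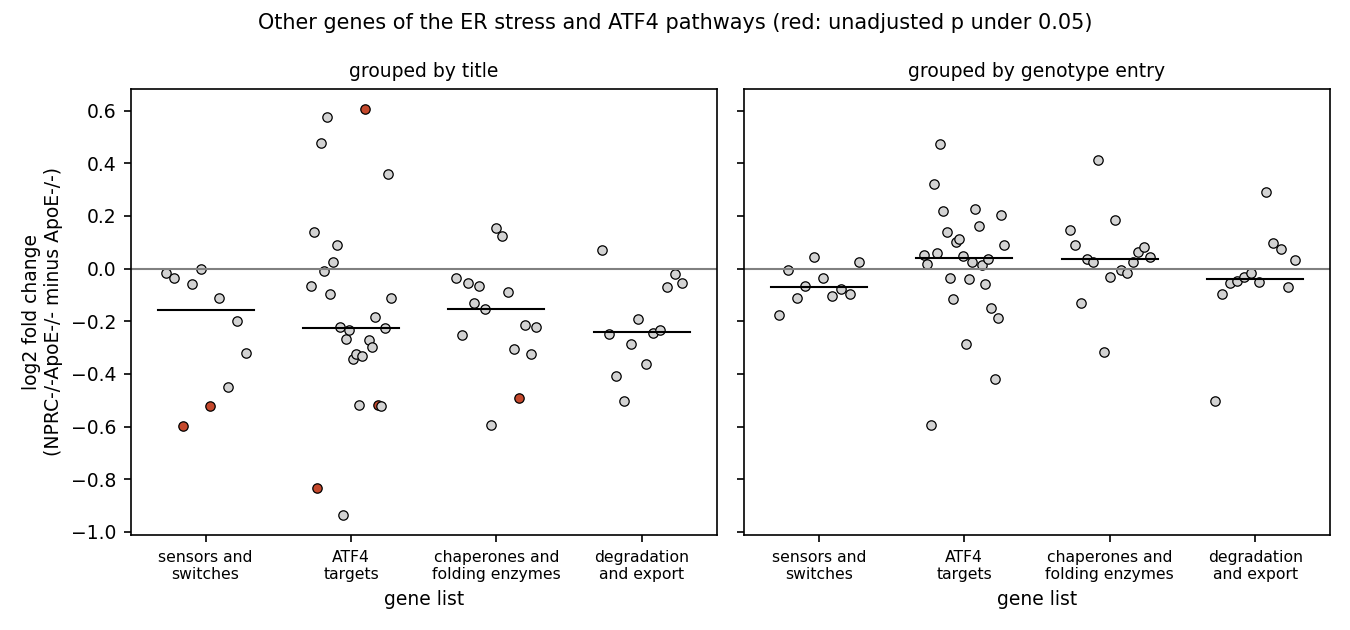
Log2 fold change (y axis) of the 63 other pathway genes tested, in 4 lists, with the libraries grouped by title (left) and by genotype entry (right). Each point is a gene, red where its unadjusted edgeR p is under 0.05, and bars are list medians, which run from -0.24 to -0.15 by title and from -0.07 to 0.04 by genotype entry.

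Of 7 marker lists, 4 had members with an unadjusted edgeR p under 0.05 by title, and 0 loci had an adjusted p under 0.05. Among all tested loci, 7.13% were lower and 6.51% higher at an unadjusted edgeR p under 0.05 by title. Of the macrophage markers 5 of 8 were lower at an unadjusted edgeR p under 0.05, and their summed level was 1647 to 4756 CPM in the libraries titled ApoE-/- and 1032 to 2390 CPM in those titled NPRC-/-ApoE-/-. Of the smooth muscle markers 9 of 10 were higher, with sums of 6594 to 8734 and 8436 to 16158 CPM. Of the early response genes 5 of 7 were lower, with sums of 427 to 1658 and 396 to 548 CPM. Of the plasma cell markers 1 of 4 tested was lower, with sums of 104 to 362 and 86 to 169 CPM, and the defining marker Jchain was at 0.11 to 10.0 FPKM. The endothelium, fat and skeletal muscle markers had 0 changed in edgeR. By genotype entry 0 markers of any list passed, beside 1.31% of all loci. No list had a locus at 0 in any library. The part of cell makeup in the levels of the 10 genes was not tested.

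Each of the 10 genes was set against each of the 7 sums over the 8 libraries, in 70 relations added after the data were seen. An adjusted exact permutation p under 0.05 was reached by 2, both of Atf4, and an unadjusted p under 0.05 by 17. Atf4 had an r of 0.94 with the plasma cell sum (rho 0.95, exact permutation adjusted p = 0.0347, r without the 2 farthest libraries 0.95, r of deviations from titled means 0.96). Of that sum 40.9 to 77.1% came from Sdc1, which other cells also express. Without Sdc1 in the list r was 0.81 (exact permutation adjusted p = 0.111). Atf4 had an r of 0.90 with the endothelium sum (rho 0.88, exact permutation adjusted p = 0.0347, r without the 2 farthest libraries 0.89), of which Vwf made up 39.4 to 56.9%, and without Vwf r was -0.65. The sign of the relation with endothelium thus rested on 1 locus. Atf4 was nearly as close to the macrophage sum (r 0.86, exact permutation adjusted p = 0.0693, r without Lyz2 in the list 0.84). With the skeletal muscle sum its r was -0.86 (exact permutation adjusted p = 0.0573). Trib3 and Sdf2l1 had an r of 0.85 and 0.81 with the macrophage sum. The relation of Atf4 was thus not particular to the plasma cell sum. With the most abundant locus taken out of each list, 2 other relations had an adjusted exact permutation p under 0.05. These were Ddit3 with the fat sum (r 0.85, exact permutation adjusted p = 0.0408) and Dnajb9 with the smooth muscle sum (r -0.90, exact permutation adjusted p = 0.0408). With the whole lists their r was 0.84 and -0.87 (exact permutation adjusted p = 0.0573 for both). Leaving out 1 library at a time, r stayed at or above 0.92 for the plasma cell sum and 0.87 for the endothelium sum, while the number of relations with an adjusted p under 0.05 went from 0 to 8, with 8 reached without NPRC-/-ApoE-/- 3 and 0 without ApoE-/- 1, 4 or 5 or NPRC-/-ApoE-/- 1 or 2.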

How the data were processed

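Values of 8 aortic poly(A) libraries were analysed. After trimming (cutadapt 1.9 per the labels), the authors used HISAT2 for mapping and StringTie for assembly and deposited whole-number counts of 48607 loci, not normalized. The authors also deposited FPKM, scaled to a length and to mapped fragments, and the length used for each locus is not given. How the counts were derived and whether strand was used are not given in the sources used here. Member loci had the spans of GENCODE M21 (GRCm38). The table had 0 columns without a sample.

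The 20506 loci that reached 1 FPKM in 3 libraries or more entered the test, made with edgeR 4.0.16 in R 4.3.3 (TMM, quasi-likelihood, Benjamini-Hochberg over all loci), and intervals come from that fit. Correlations used log2 CPM (prior count 2) and exact permutation in scipy 1.17.1. DESeq2 1.42.0, limma 3.58.1 on log2(FPKM + 1) and log2(FPKM + 0.1), other filters and scaling, a replicate block and each library left out were alternatives. The fit was checked on simulated data. Genes, lists and motifs were chosen with earlier results of these data known. Named are all 10 genes and, per pathway list, up to 3 of the largest changes with an unadjusted p under 0.05. The total was 62969165 to 86693276 counts per library, and the number of libraries limits precision (biological coefficient of variation 0.327).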

Additional observations from a re-analysis of the deposited data

Results flagged for a closer look

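Among 34 groups of 5 libraries (10 genes and 7 marker lists under both groupings, with the groups of 3 not checked) examined for a library standing apart from the rest by Dixon's criterion, 1 was found, where chance gives about 1.7. The log2 summed CPM of the white and brown fat markers was 8.29 in ApoE-/- 3, the lowest value among the 5 libraries with the genotype entry Apoe-/-. None of the 10 genes had such a library in either grouping.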

How the results depend on the processing

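For the numbers 1 to 3 shared by the titled groups, same-number correlations of deviations from group means were -0.27, -0.13 and -0.01. Those of different numbers ran from -0.17 to 0.25. Deviations within groups this small cannot settle whether the numbers pair the libraries. Under the replicate block the log2 fold change of Herpud1 was -0.0003 and no member passed an unadjusted p of 0.05. By title, the number of the 10 genes with an unadjusted p under 0.05 was 0 in every alternative except those with 1 library left out, where it went from 0 to 2, with 1 without ApoE-/- 1, where 13.3% of all loci passed, and 2 without NPRC-/-ApoE-/- 1, where 21.6% did. The number of other pathway genes by title was 2 where loci needed a mean of 5 FPKM, in a fit in which 17.3% of all loci passed. These were Slc3a2 and Pdia3, while Eif2ak2, Eif2s1, Atf3 and Pycr1 did not reach that mean and were not tested. The number by title was 3 to 12 with 1 library left out, where 6.50 to 21.6% of all loci passed. By genotype entry it was 0, beside 1.31% of all loci. It was 1 there under that filter (0.589% of all loci) and 0 to 1 with 1 library left out (0.897 to 3.56%). Pairs of genes with an adjusted p under 0.05 went from 0 to 2 and relations with marker sums from 0 to 8 with 1 library left out. These log2 fold changes turned their sign. By title, Ddit3 was 0.0015 with DESeq2, 0.0014 with RLE scaling and 0.002 with no filter, and Hspa5 was 0.0232 under the filter at 5 FPKM. Regrouped by genotype entry, Hspa5 was 0.3046, Hsp90b1 0.0863, Sdf2l1 0.0358, Dnajb9 0.0184 and Herpud1 -0.1924. By genotype entry, Dnajb9 was -0.0341 with limma on log2(FPKM + 0.1) and -0.0279 on log2(FPKM + 1). With 1 library left out, the range by title was -0.1667 to 0.1534 for Ddit3, -0.3172 to 0.1836 for Hspa5, -0.1555 to 0.1619 for Herpud1 and -0.1662 to 0.3492 for the log2 CPM difference of Chac1, whose log2 fold change with no filter was -0.0578. By genotype entry it was -0.3393 to 0.0989 for Atf4, -0.3602 to 0.0505 for Trib3, -0.2764 to 0.1006 for Asns, -0.0153 to 0.2129 for Hsp90b1, -0.3656 to 0.2981 for Sdf2l1, -0.226 to 0.1854 for Dnajb9 and -0.3068 to 0.7239 for Chac1. Apart from the genes removed by the filter at 5 FPKM, the cause of these changes was not tested. With 5 against 3 libraries, intervals of the tested genes spanned from 0.867 to 1.87 log2 units by title.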
